A study of Mus musculus with 6 samples.

Results

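The endoplasmic reticulum (ER) stress and unfolded protein response genes examined here are 33 listed genes of protein folding, ER-associated degradation and stress signalling. They were chosen by name, and each has a row in the deposited table of 54385 genes. After a filter on low counts 32 of them were among 14332 genes tested. The gene left out was Derl3, a channel subunit of ER-associated degradation, with 24 estimated counts in all 6 libraries together. Polyadenylated RNA was sequenced from brown adipose tissue, a heat-producing fat, of chow-fed C57BL/6N mice at 20 weeks of age. The 2 genotypes were wild type (WT) and ADCY3∆AT, a knockout of Adcy3-AT, with 3 libraries each. The title calls the product a truncated adenylyl cyclase 3, an enzyme (Adcy3) that makes cyclic AMP, induced by cold. How this allele was made, which tissues carry it and whether a library came from 1 mouse are not given in the sources used here. Each sample's own label names interscapular fat, while the text for the series as a whole names inguinal fat.

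The ER folds proteins that are secreted or placed in membranes, and 3 sensors in its membrane report on unfolded protein. ATF6 is cut to release a transcription factor, IRE1 (Ern1) splices the Xbp1 messenger, and both induce chaperones and the machinery that sends misfolded proteins to the proteasome. The third, PERK (Eif2ak3), phosphorylates eIF2α, which slows translation while Atf4 and its targets, such as Ddit3 and Chac1, are induced. Brown adipocytes also use NFE2L1 (Nfe2l1), a transcription factor anchored in the ER membrane that drives proteasome genes. Gene-level counts do not separate spliced from unspliced Xbp1, and neither cleavage of ATF6 nor phosphorylation of PERK was measured.

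Promoters of these genes are shown because ATF6, XBP1 and ATF4 act through short DNA elements. Promoter windows from 250 bases before to 50 bases after the annotated start were found in RefSeq (GRCm38.p6) for 28 of the 33 genes by symbol. The ER stress element (CCAAT and CCACG with 9 bases of any kind between them, read on both strands like the other elements) was in the windows of 7 of these 28 genes, which were Hsp90b1, Calr, Canx, Pdia6, Creld2, Syvn1 and Derl3. It was held by 0.137% of the 27025 genes with such windows. The element was first defined on promoters of ER chaperone genes, so its presence there is a description and no independent finding. The first pair below are the windows of the 2 members called between genotypes, and the second pair are windows with the element from an abundant member that was flat (Calr) and one whose libraries did not overlap (Canx). All run 5′ to 3′ on the gene's strand, and capitals mark the matches.
Hsp90b1, chr10:86705395-86705694, minus strand: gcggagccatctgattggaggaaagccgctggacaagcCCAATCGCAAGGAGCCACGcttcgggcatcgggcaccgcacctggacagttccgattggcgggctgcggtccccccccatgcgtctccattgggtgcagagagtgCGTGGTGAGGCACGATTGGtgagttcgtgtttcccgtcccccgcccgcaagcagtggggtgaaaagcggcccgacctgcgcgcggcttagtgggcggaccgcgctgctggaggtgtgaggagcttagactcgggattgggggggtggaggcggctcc
Nfe2l1, chr11:96829919-96830218, minus strand: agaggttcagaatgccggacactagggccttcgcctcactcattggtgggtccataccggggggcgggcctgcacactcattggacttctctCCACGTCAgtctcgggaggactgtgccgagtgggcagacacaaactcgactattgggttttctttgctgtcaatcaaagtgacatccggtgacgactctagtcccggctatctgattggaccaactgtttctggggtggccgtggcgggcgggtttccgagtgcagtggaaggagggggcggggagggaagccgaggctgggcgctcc
Calr, chr8:84846882-84847181, minus strand: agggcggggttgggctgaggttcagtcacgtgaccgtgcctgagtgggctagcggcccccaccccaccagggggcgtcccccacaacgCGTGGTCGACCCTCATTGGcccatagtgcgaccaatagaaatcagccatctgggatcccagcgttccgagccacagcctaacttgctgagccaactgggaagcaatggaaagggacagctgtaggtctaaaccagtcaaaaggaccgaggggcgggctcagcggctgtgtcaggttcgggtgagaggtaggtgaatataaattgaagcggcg
Canx, chr11:50325624-50325923, minus strand: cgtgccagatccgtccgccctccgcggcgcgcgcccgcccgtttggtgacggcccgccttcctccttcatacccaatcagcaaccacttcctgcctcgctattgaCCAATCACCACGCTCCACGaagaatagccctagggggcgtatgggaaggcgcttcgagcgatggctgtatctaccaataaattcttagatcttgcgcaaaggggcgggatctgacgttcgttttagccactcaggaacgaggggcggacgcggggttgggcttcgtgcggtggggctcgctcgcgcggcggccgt

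Hsp90b1 held the ER stress element at 2 places, from -212 to -194 and from -107 to -89 relative to the start site, the second on the opposite strand. The other 6 genes with the element held 1 match each. The Nfe2l1 window, 1 of 5 listed for that gene and shown because of its match, held the unfolded protein response element (TGACGTGG, here on the opposite strand), as did 0.714% of genes. The C/EBP-ATF element (TGATGNAA), through which ATF4 acts, was in the windows of Herpud1, Trib3, Chac1 and Asns, 4 of the 28 members against 4.51% of genes. Herpud1 was the 1 member with the second form of the ER stress element (ATTGG and CCACG with 1 base of any kind between them, added to the search after the data were seen), which 0.0444% of genes held. Because the members were chosen by name as genes of this response, these matches too are a description and no independent finding. The stretches below show the single matches, with 6 bases on each side, in members of 3 branches whose values follow.
Pdia6, ER stress element: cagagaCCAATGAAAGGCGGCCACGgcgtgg
Creld2, ER stress element on the opposite strand: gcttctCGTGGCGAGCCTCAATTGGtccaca
Syvn1, ER stress element: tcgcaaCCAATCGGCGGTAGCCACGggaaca
Herpud1, second form of the ER stress element: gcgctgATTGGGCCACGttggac
Herpud1, C/EBP-ATF element on the opposite strand: ggcgggTTGCATCAgcccgc
Chac1, C/EBP-ATF element on the opposite strand: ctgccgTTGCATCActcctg
Trib3, C/EBP-ATF element on the opposite strand: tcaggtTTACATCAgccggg
Asns, C/EBP-ATF element: gccacaTGATGAAActtccc

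Library totals ran from 13758492 to 19592156 estimated counts. The row of Adcy3 held 248, 209 and 166 CPM (counts scaled to a common library size) in the WT libraries and 167, 195 and 239.8 CPM in ADCY3∆AT, with overlapping genotypes. A row without a symbol, ENSMUSG66666620654, held 215, 197 and 118 CPM in WT and 1.27, 0 and 0 CPM in ADCY3∆AT, where a count of 0 allows up to 0.199 and 0.152 CPM (3 counts, counting error only). Its number ends like that of Adcy3, and the table does not say what it stands for. Ucp1, Cidea and the other 6 brown adipocyte markers had summed levels of 6908 to 8519 CPM in WT and 7293 to 7969 CPM in ADCY3∆AT. Of these 8, Adrb3 rose (log2FC 0.96, edgeR adjusted p = 0.00435), and Ppargc1a (1.01, adjusted p = 0.0609) was called by DESeq2 but not by edgeR. Summed levels of 9 skeletal muscle markers were 21.4, 107 and 639 CPM in WT and 0.759 to 2.15 CPM in ADCY3∆AT. All 7 of these that passed the count filter fell in edgeR, limma-voom called 0, and Ckm was at 0 in ADCY3∆AT replicates 2 and 3. In bulk tissue, fewer cells of a type and less RNA per cell cannot be told apart.

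In the unfolded protein response genes as a whole, 2 of 32 rose in ADCY3∆AT and 0 fell in edgeR. Without the filter on low counts 6 were called higher and 1, Xbp1, lower, although the genotypes of Xbp1 overlapped. That fit called 1951 of all genes, against 616 with the filter. Hsp90b1, the ER form of the HSP90 chaperone, rose 1.24-fold, and Nfe2l1 rose 1.22-fold. The 2 calls are 6.25% of the members, beside 4.30% of all genes tested (616 of 14332, edgeR quasi-likelihood test, adjusted p under 0.05), so the share of members called was near the background. Higher calls made up 2.63% of all genes (377) and lower calls 1.67% (239), a split that became 282 and 274 with upper-quartile scaling. The median log2 fold change (log2FC, ADCY3∆AT minus WT) was 0.05 over the members and -0.01 over all genes tested. The 95% interval of the fold change lay within 2-fold in both directions for 29 of the 32 members, and the other 3 were Herpud1, Chac1 and Sdf2l1.

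In 10 members the 3 ADCY3∆AT libraries all lay above the 3 of WT, and in 0 members all lay below. These 10 are 31.3% of the members. Of all genes tested, 15.1% were higher without overlap, 13.9% were lower without overlap, and 29.0% did not overlap in either direction. An unadjusted edgeR p under 0.05 was reached by 9 members (28.1%) with a higher level and 0 with a lower one, against 12.4% and 10.2% of all genes. A positive log2FC was found in 20 of 32 members (62.5%) and in 48.9% of all genes.

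**Figure D1:**
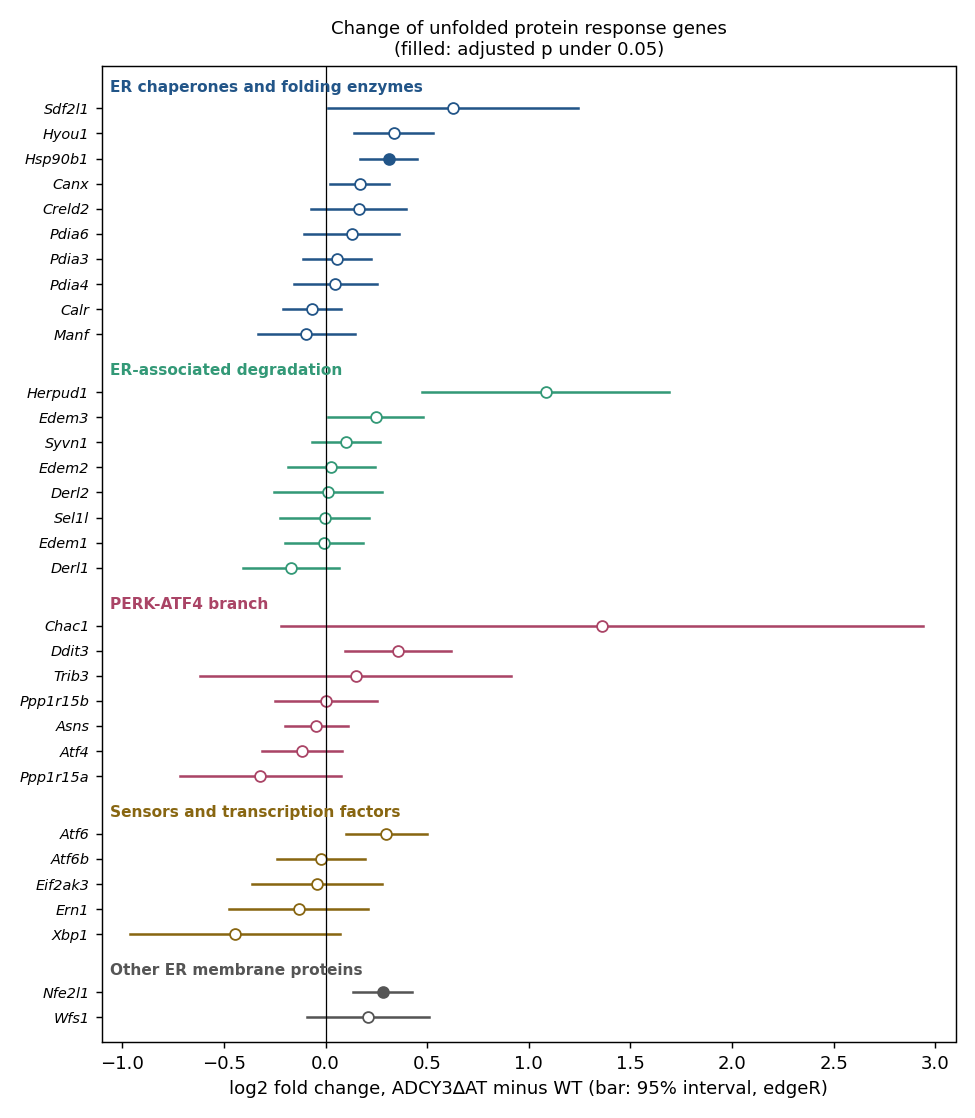
Log2 fold change of each tested member (x axis, ADCY3∆AT minus WT) by branch, with its 95% interval from edgeR and n = 3 libraries per genotype. The filled points are Hsp90b1 and Nfe2l1, the 2 called members, and the widest intervals are those of Chac1 and Trib3.

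Among the 10 ER chaperones and folding enzymes, 1 rose in edgeR and limma-voom (Hsp90b1) and 9 were not called by either, while DESeq2 also called Hyou1. The branch had a median log2FC of 0.15, with 8 of 10 values above 0. In 5 members (50%) the libraries did not overlap, all higher in ADCY3∆AT, against 15.1% of all genes. Hsp90b1 held 138, 144 and 144 CPM in WT and 172, 183 and 174 CPM in ADCY3∆AT. Every ADCY3∆AT library was above every WT library, and the libraries of a genotype differed by little (142 ± 3.66 CPM against 176 ± 5.85 CPM, SD, n = 3). The log2FC was 0.31 (SE 0.06, 95% interval 0.17 to 0.45, edgeR adjusted p = 0.0331). A two-sided exact permutation test gave p = 0.1, the smallest that 3 against 3 libraries allow. Part of its exons, 415 of 4032 bases, is shared with 1810014B01Rik on the opposite strand, a row that held 6.27 to 8.88 CPM.

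Hyou1, a large ER chaperone of the HSP110 kind that assists BiP, was next by p. It held 63.8, 66.9 and 55.4 CPM in WT and 75.1, 78.0 and 81.3 CPM in ADCY3∆AT, again without overlap. Its log2FC of 0.33 (95% interval 0.14 to 0.53) did not pass the threshold in edgeR (adjusted p = 0.0666) but did in DESeq2 (adjusted p = 0.0322). Canx, the membrane lectin chaperone calnexin, held 192, 209.7 and 195 CPM in WT and 221, 226 and 224 CPM in ADCY3∆AT, with a log2FC of 0.17 (edgeR adjusted p = 0.162). Its soluble relative Calr, calreticulin, held 223, 221 and 234 CPM in WT and 221, 218 and 207 CPM in ADCY3∆AT. Calr had the highest CPM of the branch in WT, while in ADCY3∆AT the mean of Canx was above it (223.4 against 215.6 CPM). For Calr the genotypes overlapped, and the interval of the log2FC ran from -0.21 to 0.07. The 2 lectin chaperones thus had values on different sides of 0 while their promoters both held the ER stress element, and the difference between them was not tested.

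Sdf2l1, a partner of ER chaperone complexes, was the least abundant of the branch, at 1.37, 1.48 and 1.296 CPM in WT and 1.60, 2.66 and 2.18 CPM in ADCY3∆AT. Its log2FC was 0.63 with an interval from 0.01 to 1.24 (edgeR adjusted p = 0.214), drawn from 176 counts over all libraries. Creld2, an ER protein induced by unfolded protein, also had libraries that did not overlap, with means of 9.17 ± 0.0985 CPM and 10.3 ± 0.482 CPM (SD, n = 3) and a log2FC of 0.16. The 3 protein disulfide isomerases Pdia3, Pdia4 and Pdia6, which form and reshuffle disulfide bonds, had log2FCs of 0.06, 0.05 and 0.13 and overlapping genotypes. Manf, a secreted ER stress protein, had a log2FC of -0.09. The 6 members of this branch other than Hsp90b1, Hyou1, Sdf2l1 and Canx had edgeR adjusted p-values of at least 0.384.

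**Figure D2:**
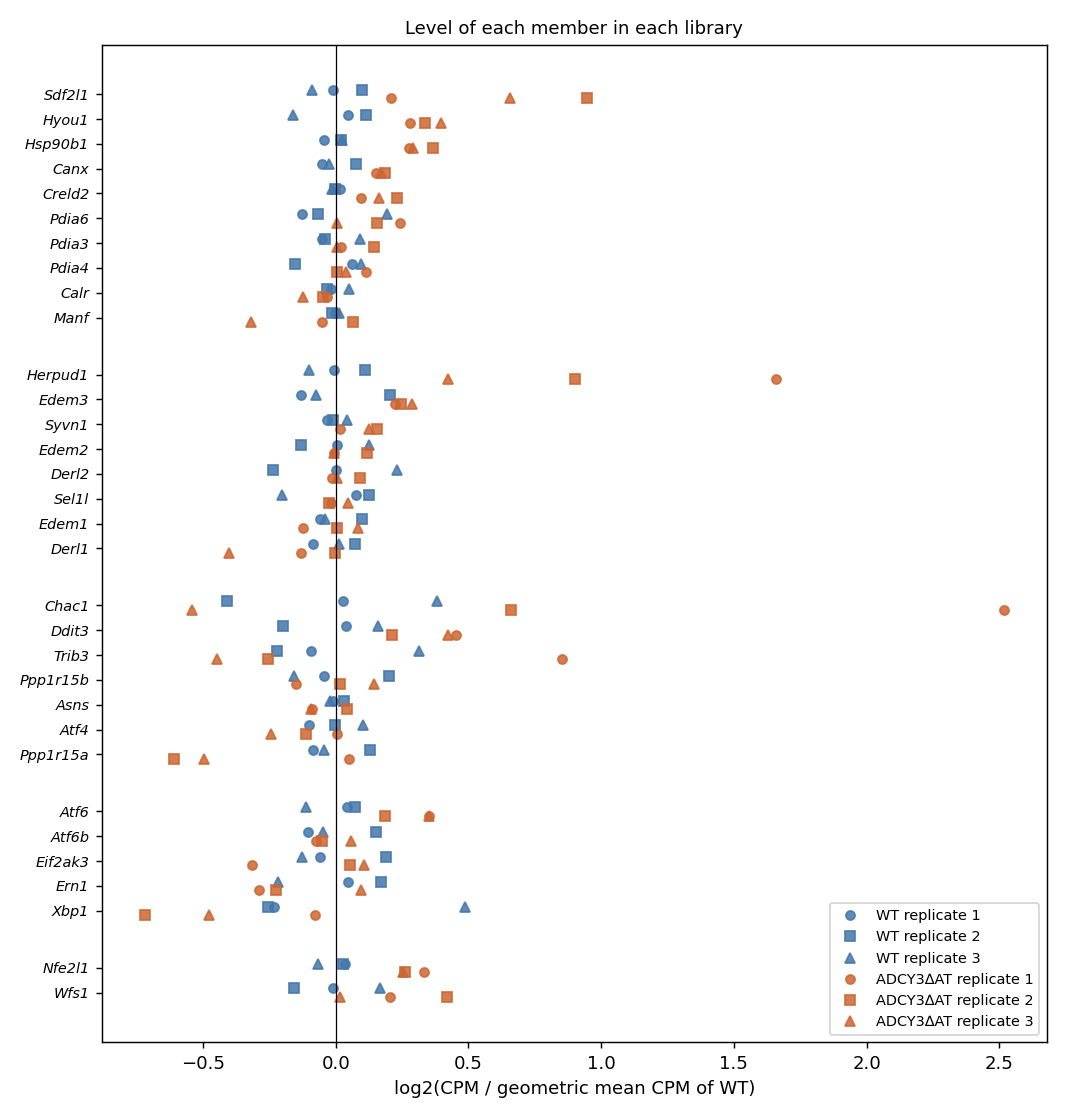
Level of each member in each library, as log2 of its CPM over the geometric mean CPM of the WT libraries (x axis), with WT in blue, ADCY3∆AT in orange, and circles, squares and triangles for replicates 1, 2 and 3. Hsp90b1, Hyou1 and Nfe2l1 show 3 orange points to the right of 3 blue ones, while Chac1 and Trib3 are spread among the orange points.

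Of the 9 genes of ER-associated degradation, which pulls misfolded proteins back to the cytosol, 8 were tested and 0 were called by edgeR or limma-voom, while DESeq2 called 1 (Herpud1), and 2 had an unadjusted edgeR p under 0.05. The median log2FC of the branch was 0.02. Herpud1, a membrane protein that gathers the degradation complex around the ligase, held 72.1, 78.1 and 67.5 CPM in WT and 228, 135 and 97.0 CPM in ADCY3∆AT. All ADCY3∆AT libraries were above WT, but they differed by up to 2.35-fold among themselves. The mean was 72.6 ± 5.31 CPM in WT and 154 ± 67.6 CPM in ADCY3∆AT (SD, n = 3), with a log2FC of 1.08 (SE 0.27, edgeR adjusted p = 0.061). Without ADCY3∆AT replicate 1, the highest library, the log2FC was 0.69 and the gene was called, as it was without ADCY3∆AT replicate 3 (1.33). It was not called without WT replicate 1, 2 or 3 or without ADCY3∆AT replicate 2 (edgeR adjusted p from 0.117 to 0.179).

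Edem3, 1 of 3 related lectins that mark glycoproteins for degradation, held 18.0, 22.7 and 18.7 CPM in WT and 23.0, 23.3 and 24.0 CPM in ADCY3∆AT. Its libraries did not overlap, though WT replicate 2 came close to the ADCY3∆AT libraries (log2FC 0.25, edgeR adjusted p = 0.203). Its relatives Edem1 and Edem2 had log2FCs of -0.01 and 0.03. Syvn1, the ubiquitin ligase HRD1, had a log2FC of 0.10, and its partner Sel1l of 0.00, with an interval from -0.22 to 0.21.

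Derl1, a derlin of the export channel and the degradation member with the highest CPM, held 197, 219 and 210.2 CPM in WT and 190.3, 208 and 158 CPM in ADCY3∆AT. The genotypes overlapped, and its log2FC was -0.17 (edgeR adjusted p = 0.372). Its relative Derl2 was at 31.0 ± 4.996 CPM in WT and 31.3 ± 1.27 CPM in ADCY3∆AT (SD, n = 3). Derl3, known as a gene of secretory cells, had 5, 2 and 8 estimated counts in WT and 2, 4 and 3 in ADCY3∆AT, too few for a test.

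In the PERK-ATF4 branch 0 of 7 members were called by edgeR, limma-voom or DESeq2, 1 had an unadjusted edgeR p under 0.05, and the median log2FC was 0.00. Atf4 itself, the transcription factor of the branch, held 88.3, 94.5 and 102 CPM in WT and 94.8, 87.7 and 79.9 CPM in ADCY3∆AT, with overlap and a log2FC of -0.12. Its activity is set largely by translation, which RNA levels do not show. Ddit3, the stress factor CHOP, held 18.4, 15.6 and 20.0 CPM in WT and 24.5, 20.7 and 24.0 CPM in ADCY3∆AT. The libraries of Ddit3 did not overlap, by a narrow margin between the highest WT and the lowest ADCY3∆AT library (log2FC 0.36, interval 0.09 to 0.62, edgeR adjusted p = 0.118). Part of its exons, 68 of 1713 bases, is shared with Mars on the opposite strand, a more abundant row that held 51.2 to 59.6 CPM. A second row with the symbol Ddit3 held 0.927 counts in all and was not used.

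Chac1, which degrades glutathione, and Trib3, a pseudokinase induced by ATF4, were set apart by 1 library. Chac1 held 1.502, 1.11 and 1.92 CPM in WT and 8.42, 2.32 and 1.01 CPM in ADCY3∆AT, and Trib3 held 6.46, 5.91 and 8.57 CPM in WT and 12.4, 5.78 and 5.06 CPM in ADCY3∆AT. For both, ADCY3∆AT replicate 1 was the highest of all 6 libraries and replicate 3 the lowest. The log2FC of Chac1 was 1.36 (SE 0.69, interval -0.22 to 2.94, edgeR adjusted p = 0.288). The value was 0.11 without ADCY3∆AT replicate 1. Asns, asparagine synthetase, was at 71.2 ± 1.36 CPM in WT and 69.0 ± 3.73 CPM in ADCY3∆AT (SD, n = 3), so its level differed by less than the spread between ADCY3∆AT libraries.

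The 2 phosphatase subunits that reverse eIF2α phosphorylation also had no called change. Ppp1r15a, the stress-induced one, was at 13.0, 15.1 and 13.4 CPM in WT and 14.3, 9.03 and 9.77 CPM in ADCY3∆AT (log2FC -0.32, edgeR adjusted p = 0.316). Ppp1r15b, the constant one, held 143, 169 and 132 CPM in WT and 132, 148 and 162 CPM in ADCY3∆AT. Its log2FC was 0.00 (interval -0.25 to 0.25), with a sign that turned in several alternative fits.

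**Figure D3:**
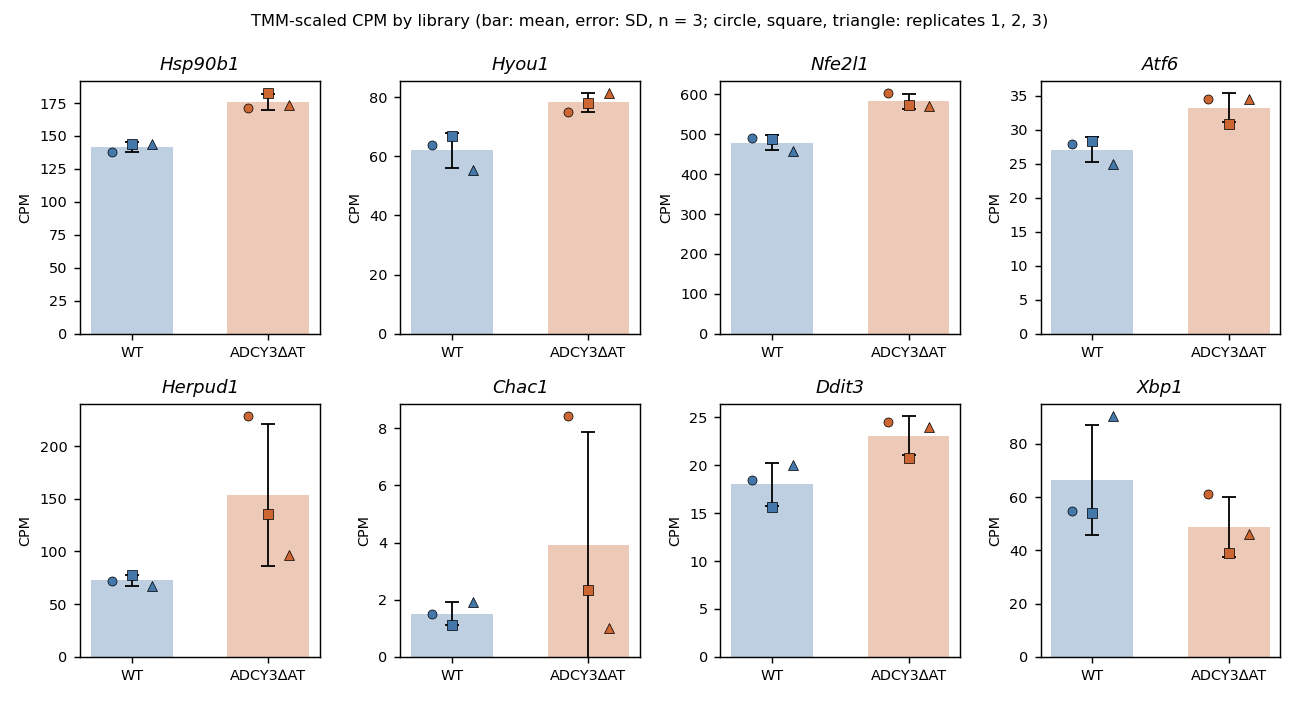
CPM of 8 members by library (y axes from 0), with bars for the mean and error bars for the SD of 3 libraries per genotype, and circles, squares and triangles for replicates 1, 2 and 3. Hsp90b1 and Nfe2l1 show tight groups that do not overlap, Herpud1 and Chac1 have 1 high ADCY3∆AT library (228 and 8.42 CPM), and Xbp1 has 1 high WT library (90.4 CPM).

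None of the 5 sensors and transcription factors was called by edgeR, limma-voom or DESeq2, 1 had an unadjusted edgeR p under 0.05, and 4 of 5 had negative log2FCs (median -0.04, but 0.06 without WT replicate 2 and 0.01 without ADCY3∆AT replicate 1). Atf6 held 27.8, 28.4 and 25.0 CPM in WT and 34.5, 30.8 and 34.5 CPM in ADCY3∆AT. Its libraries did not overlap, and its log2FC was 0.30 (interval 0.10 to 0.50, edgeR adjusted p = 0.0943). The related Atf6b had a log2FC of -0.02 (interval -0.24 to 0.19). The kinase sensors Ern1 and Eif2ak3 had values of -0.13 and -0.04, with overlapping genotypes.

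Xbp1, whose messenger IRE1 splices, held 54.9, 54.0 and 90.4 CPM in WT and 61.2, 39.2 and 46.3 CPM in ADCY3∆AT. The genotypes overlapped, and WT replicate 3 was the highest library. The log2FC was -0.44 (SE 0.23, interval -0.96 to 0.07, edgeR adjusted p = 0.288). It was -0.15 without WT replicate 3. That library also had the highest summed level of muscle markers (639 CPM), and the part of muscle RNA in the value was not tested. Xbp1 and Derl3 also mark plasma cells, and 7 other plasma cell and B cell markers summed to 6.38 to 8.23 CPM in WT and 5.70 to 7.64 CPM in ADCY3∆AT. Of the 7 only 4 were tested and 0 of these were called by edgeR, limma-voom or DESeq2. Mzb1 was at 0 in WT replicate 2, and Cd79b was at 0 in ADCY3∆AT replicates 1 and 2.

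Of the other ER membrane proteins, Nfe2l1 rose and Wfs1, a membrane protein that restrains ATF6, was not called. Nfe2l1 held 491, 488 and 458 CPM in WT and 603, 573 and 571 CPM in ADCY3∆AT. The groups were tight and did not overlap, with 479 ± 18.4 CPM and 582 ± 18.1 CPM (SD, n = 3). The log2FC was 0.28 (SE 0.06, interval 0.14 to 0.43, edgeR adjusted p = 0.0469). A two-sided exact permutation test gave p = 0.1. Wfs1 held 13.3, 12.0 and 15.05 CPM in WT and 15.5, 17.9 and 13.6 CPM in ADCY3∆AT, with overlap (log2FC 0.21, edgeR adjusted p = 0.386).

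Both calls among the members were near the threshold. Neither was made with upper-quartile scaling, without WT replicate 1, 2 or 3, or without ADCY3∆AT replicate 2 or 3, and that of Nfe2l1 also ended without ADCY3∆AT replicate 1. Their log2FCs moved little in the fits without 1 library, from 0.29 to 0.34 for Hsp90b1 and from 0.25 to 0.30 for Nfe2l1.

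Nfe2l1 was also the member with the highest level per length of annotated exon in WT, at 88.0 ± 3.39 CPM per kilobase (SD, n = 3). Calr (78.5 ± 2.33) and Derl1 (62.7 ± 3.40) followed on that scale, then Canx (42.4 ± 2.03) and Atf4 (40.2 ± 2.82), which did not differ beyond their spread. The lowest were Ern1 (1.31 ± 0.176), Sdf2l1 (1.247 ± 0.0824) and Chac1 (0.922 ± 0.247), whose ranges overlapped in part. The level of Herpud1 was 31.1 ± 2.28 CPM per kilobase in WT, close to those of Pdia3 (34.96 ± 1.99) and Hsp90b1 (35.2 ± 0.908), and 65.9 ± 29.0 in ADCY3∆AT.

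Most members varied little between libraries of a genotype. The highest library was over 1.5 times the lowest in 2 of 32 members in WT (Chac1 and Xbp1) and in 6 of 32 in ADCY3∆AT (Chac1, Herpud1, Trib3, Xbp1, Ppp1r15a and Sdf2l1). The median of this ratio, after adding 0.5 CPM, was 1.17 in WT and 1.14 in ADCY3∆AT for the members, against 1.21 and 1.20 for all genes tested. Replicate 1, 2 and 3 of ADCY3∆AT were the highest of their genotype for 11, 12 and 9 members, so the high values of replicate 1 in Chac1, Trib3 and Herpud1 were not shared by the whole list.

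Other genes of the ER pathway gave few calls. BiP (Hspa5), the main ER chaperone and the gene most used to report ER stress, held 221, 251 and 243 CPM in WT and 238, 275 and 247 CPM in ADCY3∆AT, with overlap (log2FC 0.09, interval -0.10 to 0.27, edgeR adjusted p = 0.571). It was named after its value was seen. Among 21 other tested ER folding genes, BiP included, 0 were called by either edgeR or limma-voom and 1 (Txndc5, lower) by DESeq2, 2 with a higher and 3 with a lower level had an unadjusted edgeR p under 0.05, and the median log2FC was 0.01. The smallest p-values belonged to Txndc5 and Txndc11, thioredoxin-like ER proteins, with log2FCs of -0.37 for each (edgeR adjusted p = 0.0806 and 0.083). Txndc5 held 42.0, 42.6 and 53.3 CPM in WT and 34.9, 36.1 and 35.7 CPM in ADCY3∆AT, and Txndc11 held 27.0, 28.7 and 27.5 CPM in WT and 18.4, 22.3 and 23.5 CPM in ADCY3∆AT, neither with overlap. The 2 higher genes at an unadjusted edgeR p under 0.05 were Erp44 (log2FC 0.28, edgeR adjusted p = 0.103) and Dnajb9 (log2FC 0.20, edgeR adjusted p = 0.217). Without overlap, 3 genes of this list were higher and 3 lower, 28.6% in all against 29.0% of all genes.

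Among 24 other genes of degradation and of transport into the ER 0 were called by either edgeR or limma-voom and 1 (Ube2j1, higher) by DESeq2, and 4 higher and 1 lower had an unadjusted edgeR p under 0.05. The median log2FC was -0.01. Ube2j1, a ubiquitin-conjugating enzyme of the ER, was nearest, at 35.3, 32.7 and 32.6 CPM in WT and 44.5, 39.9 and 42.5 CPM in ADCY3∆AT (log2FC 0.33, edgeR adjusted p = 0.0503). Ube2g2, another such enzyme, held 34.6, 31.5 and 39.6 CPM in WT and 44.1, 46.4 and 43.4 CPM in ADCY3∆AT (log2FC 0.34, edgeR adjusted p = 0.0847). In both, all ADCY3∆AT libraries were above WT.

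The 14 tested kinases, proteases and regulators had 0 calls in edgeR, limma-voom or DESeq2, with 2 higher and 1 lower at an unadjusted edgeR p under 0.05 and a median log2FC of 0.09. Eif2ak2, an eIF2α kinase that senses double-stranded RNA, held 12.3, 11.6 and 14.1 CPM in WT and 9.74, 7.90 and 9.26 CPM in ADCY3∆AT (log2FC -0.50, edgeR adjusted p = 0.0648). Map3k5, a stress kinase downstream of IRE1, held 25.7, 29.9 and 25.3 CPM in WT and 43.1, 33.3 and 31.9 CPM in ADCY3∆AT (log2FC 0.42, edgeR adjusted p = 0.105). Neither overlapped, in opposite directions.

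Of 25 tested further ATF4 targets and amino acid genes, 2 rose and 0 fell in edgeR (8% called, beside 4.30% of all genes). DESeq2 made 4 higher calls and limma-voom 1 (Sars), and the median log2FC was 0.12. An unadjusted edgeR p under 0.05 was reached by 7 with a higher level (28%, against 12.4% of all genes) and 1 with a lower one. The summed level of this list was 1670 to 1748 CPM in WT and 2465, 2009 and 1808 CPM in ADCY3∆AT. A large part of this sum was Cebpb, at 574, 660 and 637 CPM in WT and 897, 858 and 613 CPM in ADCY3∆AT. The genotypes of Cebpb overlapped (edgeR adjusted p = 0.191), and the sum does not show a rise across the list. With upper-quartile scaling 0 genes of the list were called (edgeR adjusted p = 0.0509 for Sars and 0.0517 for Ddit4). Ddit4, a stress-induced inhibitor of mTORC1, held 29.3, 21.4 and 24.1 CPM in WT and 253, 55.2 and 72.6 CPM in ADCY3∆AT (log2FC 2.35, edgeR adjusted p = 0.0479). ADCY3∆AT replicate 1 was again the highest library, and without it the log2FC was 1.37 and still called. Sars, a seryl-tRNA synthetase, held 59.7, 57.1 and 58.7 CPM in WT and 78.9, 73.0 and 70.8 CPM in ADCY3∆AT (log2FC 0.34, edgeR adjusted p = 0.0352), and it was not called without any 1 of the 6 libraries. Ddit4 was called without ADCY3∆AT replicate 1 or 2 and lost its call without WT replicate 1, 2 or 3 or ADCY3∆AT replicate 3.

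Beside Herpud1, Chac1, Trib3 and Ddit4, other genes of the last list were highest in ADCY3∆AT replicate 1. Sesn2 held 39.4, 26.1 and 14.8 CPM and Slc3a2 90.5, 57.2 and 50.7 CPM in ADCY3∆AT. Others were not, such as Atf3 (2.20, 4.45 and 3.59 CPM) and Shmt2 (15.1, 17.9 and 19.6 CPM). Among the ADCY3∆AT libraries, Atf5, Cebpb, Cebpg, Vldlr, Psat1 and Sars were also highest in replicate 1, and Slc7a1, Phgdh and Psph in replicate 2. These genes are examples, and the list was not counted by highest library. The summed level of 4 Schwann cell markers was also highest in ADCY3∆AT replicate 1, at 94.1 CPM, with 72.6 and 57.6 CPM in replicates 2 and 3. In WT it was 54.7 to 57.4 CPM. All 4 markers had log2FCs above 0, with 2 at an unadjusted edgeR p under 0.05 and 0 called by edgeR, limma-voom or DESeq2. Their part in these values was not tested.

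The proteasome subunits, genes that NFE2L1 is known to drive, gave no call. Of 32 tested 0 were called by edgeR, limma-voom or DESeq2, 0 higher and 2 lower had an unadjusted edgeR p under 0.05, 23 had negative log2FCs and the median was -0.08. Without overlap 6 (18.75%) were lower and 0 higher, against 13.9% and 15.1% of all genes. A positive log2FC was found in 28.1%, against 48.9% of all genes. The activity of the NFE2L1 protein was not measured. Psmb5, a catalytic subunit, held 128, 123 and 144 CPM in WT and 119, 112 and 104.5 CPM in ADCY3∆AT (log2FC -0.23, edgeR adjusted p = 0.147), and its libraries were lower in ADCY3∆AT without overlap. Psmb3, a subunit of the same core ring, held 103, 95.6 and 104.3 CPM in WT and 88.9, 88.6 and 90.8 CPM in ADCY3∆AT (log2FC -0.17, edgeR adjusted p = 0.162), also lower without overlap.

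Heat shock genes that serve protein folding outside the ER, most of them in the cytosol, gave a different count. Of 18 tested 15 rose and 0 fell in edgeR, with a median log2FC of 1.56, against 1 of 10 ER chaperones and folding enzymes with a median of 0.15. The 3 not called were Cryab, a small heat shock protein (log2FC 0.10), and the mitochondrial chaperonin genes Hspd1 and Hspe1 (log2FC 0.38 and 0.43, edgeR adjusted p = 0.0592 and 0.0687). The heat shock list was chosen with its rise known, so the contrast is a description, and the difference between the lists was not tested. Their summed level was 2704, 2590 and 3072 CPM in WT and 4895, 7828 and 9487 CPM in ADCY3∆AT. Hsp90ab1, the cytosolic relative of Hsp90b1, held 544, 509 and 570.2 CPM in WT and 1111, 1349 and 1652 CPM in ADCY3∆AT, a log2FC of 1.34 where that of Hsp90b1 was 0.31. Hsph1, the cytosolic relative of Hyou1, held 20.0, 16.0 and 22.3 CPM in WT and 150.1, 325 and 424 CPM in ADCY3∆AT (log2FC 3.94 against 0.33 for Hyou1). Hspa4l, Stip1 and Hspb1, other cytosolic chaperones and a cochaperone, were the remaining genes with the smallest p, and ADCY3∆AT held 51.4, 80.6 and 84.1 CPM of Hspa4l, 111, 165 and 188 CPM of Stip1 and 240.6, 459 and 627 CPM of Hspb1. In WT these were at 17.04 to 20.1, 39.4 to 47.6 and 52.2 to 63.7 CPM, all below every ADCY3∆AT library. Summed heat shock levels were lowest in ADCY3∆AT replicate 1 among the ADCY3∆AT libraries, the one in which Herpud1, Chac1, Trib3 and Ddit4 were highest. Calls among the 18 numbered 8, 9 and 10 without WT replicate 1, 2 and 3 and 17, 9 and 12 without ADCY3∆AT replicate 1, 2 and 3.

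**Figure D4:**
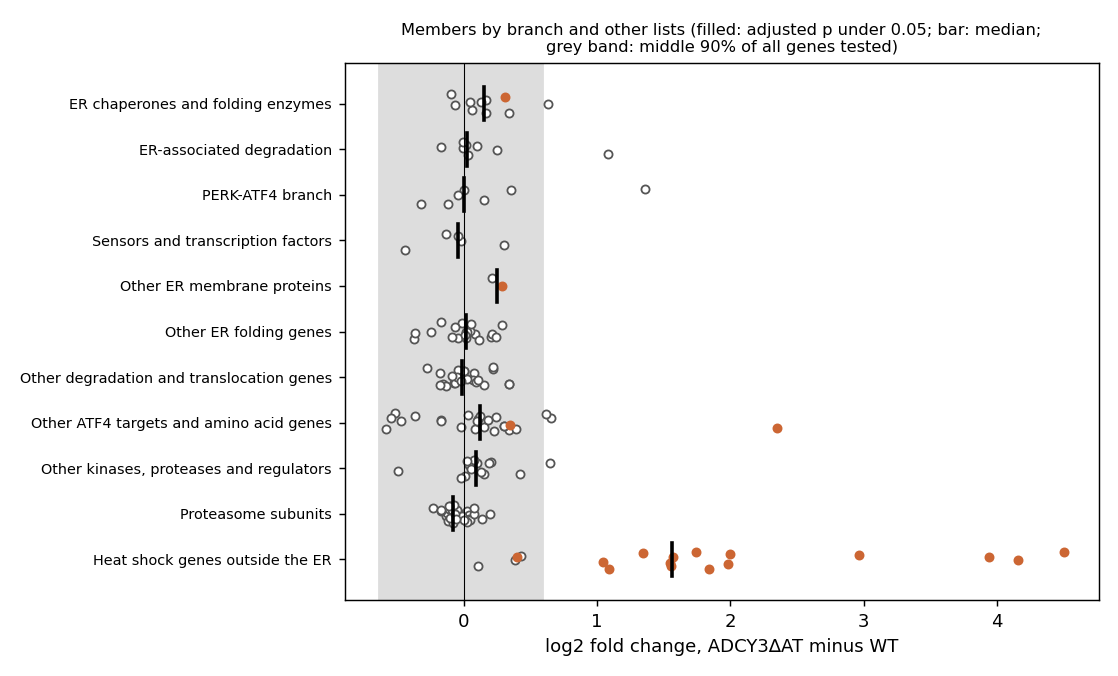
Log2 fold change (x axis, ADCY3∆AT minus WT) of each tested gene in the 5 branches of members and in the 6 other lists, with a bar at each median and filled points for genes called by edgeR. The grey band holds the middle 90% of all genes tested, from -0.64 to 0.60, which holds all members but Chac1, Herpud1 and Sdf2l1, while the heat shock genes outside the ER have a median of 1.56.

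With regard to the elements shown above, the 6 tested members with the first form of the ER stress element had log2FCs of 0.31 (Hsp90b1), 0.17 (Canx), 0.16 (Creld2), 0.13 (Pdia6), 0.10 (Syvn1) and -0.07 (Calr), of which that of Hsp90b1 was called. Herpud1, with the second form, had a log2FC of 1.08 and also held a C/EBP-ATF element, so its value belongs to both groups. Nfe2l1, with the unfolded protein response element, had a log2FC of 0.28 and was called. The 4 members with a C/EBP-ATF element had log2FCs of 1.36 (Chac1), 1.08 (Herpud1), 0.15 (Trib3) and -0.04 (Asns), with 0 called by edgeR. Of these 4, Chac1, Herpud1 and Trib3 had their highest value in ADCY3∆AT replicate 1, and Asns did not (67.0, 73.3 and 66.8 CPM in ADCY3∆AT).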

How the data were processed

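RNA was taken from tissue with TRIzol and spin columns and made into paired-end libraries (NEBNext Ultra II), per the labels' protocols. The authors deposited estimated counts per gene, which are unscaled and carry decimals. The submitters' processing notes name GRCm38, StringTie, Salmon and edgeR, and their versions, their roles and the strand setting are not given in the sources used here. A number in each description tied a column to its sample. Symbols and exon lengths came from GENCODE M21.

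Counts were rounded and filtered with filterByExpr (minimum count 10, minimum total 15), scaled by TMM. All 6 libraries entered a fit without covariates in edgeR (version 4.0.16, R version 4.3.3), with its quasi-likelihood F test, two-sided. Genes with a Benjamini-Hochberg adjusted p under 0.05, over all 14332 genes tested, were called. CPM are TMM-scaled counts, and single values were also set to an exact permutation test of log2(CPM + 0.5). The fit was tested on simulated data. Of 100 genes given a 1.25-fold change it recovered 4, and of 100 given a 2-fold change 88, with 7 false calls. An absent call thus says little about changes near 1.25-fold, which is near the size of both member calls. Fewer genes were changed in the simulation than were called in the data, and they were not chosen to match the members. The shares recovered therefore do not give the share that would be found among the members. Within a genotype, no pair of libraries was alike within counting noise (a chi-square of 5.75 to 23.4 per gene). P-values measure the spread between these libraries, which may be technical. Without a known strand setting, reads of overlapping genes cannot be told apart. Alternatives used DESeq2 1.42.0 and limma 3.58.1.

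Members, branches and lists were chosen with earlier results of these data known. Every member was accounted for. Values in each library were given for called members, for the 2 with the smallest p and the 1 with the highest CPM per branch, and for others singled out after their values were seen. Of each other list, up to 5 called genes were taken, and a pair by p where there was no call.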

Additional observations from a re-analysis of the deposited data

How the results depend on the processing

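With edgeR at an adjusted p under 0.05, 2 members and 616 of all genes were called. DESeq2 size factors, library size alone, limma-voom and the filter of CPM above 1 in 3 libraries also gave 2 members, Hsp90b1 and Nfe2l1. The number of members called was 0 with upper-quartile factors, 4 in the DESeq2 Wald test, 7 with no filter on low counts (6 higher, and Xbp1 lower with an edgeR adjusted p of 0.000904) and 5 at an adjusted p under 0.10. The number of all genes called was 1001, 1951 and 1375 in the last 3 of these. With no filter the edgeR adjusted p-values were far smaller, at 1.04e-29 for Herpud1 against 0.061 in the main fit. Xbp1 and Chac1, both called with no filter, had overlapping genotypes in the main fit. The calls made with no filter thus show a dependence on the filter and were not taken as changes of these genes. Without 1 library, members called ranged from 0 to 2 and all genes called from 162 to 461. With upper-quartile factors the median log2 fold change was 0.0132 for all members and 0.11 for ER chaperones and folding enzymes. In the fits without 1 library these medians ranged from 0.045 to 0.11 and from 0.11 to 0.17, and that of ER-associated degradation from 0.0013 to 0.11. Ppp1r15b had a log2 fold change of -0.0341 with upper-quartile factors and -0.000273 with the CPM filter, and from -0.0739 to 0.11 without 1 library. Members without overlap numbered 9 to 11 under the other scalings and filters, and this count was not recomputed where only the test, threshold, block or set of libraries changed. The cause of these shifts was not tested, except that fits without 1 library hold fewer samples.

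The replicate numbers showed no sign of pairing the samples. Deviations from the genotype means had correlations of -0.00665, 0.00699 and -0.0453 for numbers 1, 2 and 3, and libraries did not all correlate best with their own number. With 3 libraries per genotype, these correlations cannot show that the samples were unpaired. With the replicate number as a block, 0 members and 324 of all genes were called. Under this block Sars also lost its call (adjusted p = 0.0776).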
